A study of Homo sapiens with 8 samples.

Results

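Mismatch repair removes the errors that DNA polymerases leave behind, and 7 repair genes are described here: MSH6 and MSH3 of the MutS family, PMS2, PMS1 and MLH3 of the MutL family, the exonuclease gene EXO1, and MGMT. They are 7 of the 16829 genes in the deposited tables, and all 7 passed the filter on low counts. They were listed by name and function, with no threshold on a measured value. MGMT is not a mismatch repair gene by function. It encodes a methyltransferase that takes alkyl groups off guanine directly, and it is read together with this pathway because lesions it leaves behind are mispaired at replication and then met by the mismatch machinery.

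In human cells MutS heterodimers find the error, MutL heterodimers are recruited and nick the new strand, and EXO1 degrades that strand so that polymerase delta can fill the gap. MSH6 and MSH3 compete for a shared MutS partner, MSH6 giving the complex for base mismatches and small loops and MSH3 the one for larger insertion and deletion loops. PMS2, PMS1 and MLH3 likewise share a MutL partner, PMS2 giving the main repair endonuclease, MLH3 an endonuclease best known from meiosis, and PMS1 a complex whose part in repair is poorly defined. Colorectal tumours that lose the pathway gain and lose repeat units across the genome, which is called microsatellite instability.

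RNA-seq libraries were available for 4 groups of 2 colorectal carcinoma cell lines, with 2 libraries in each group. RKO cells that overexpress the cytochrome P450 gene CYP1B1 from a lentivirus were compared with RKO control cells, and SW480 cells with 1 lentiviral hairpin against CYP1B1 (shCYP1B1) with SW480 cells carrying a hairpin without a target (shNT). RKO is microsatellite unstable and SW480 microsatellite stable. All cells grew in DMEM with 10% serum, and the labels describe lentiviral delivery for all samples. Since nothing states that the libraries of a group came from separate cultures, the p-values measure the spread between these libraries, which may be technical. With a single hairpin, effects of the hairpin and of CYP1B1 loss cannot be told apart.

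Total counts lay between 31550173 and 34921085 per library. CYP1B1 itself was at 85.0 and 100.7 FPKM (the count per kilobase of gene length, scaled to the library total) in RKO cells with the transgene, against 0.13 and 0.14 FPKM in RKO control cells. It was at 0.07 and 0.06 FPKM in SW480 shCYP1B1 cells and 0.27 and 0.42 FPKM in shNT cells. The log2 differences were 9.42 ± 0.18 and -2.44 ± 0.31 (standard error, SE), in the direction of the labels, although CYP1B1 was already low in shNT cells. The 2 libraries of the overexpression group stood farther apart than any other pair: 156 of 10090 genes differed over 2-fold between them, against 114 between RKO controls, 20 between shCYP1B1 libraries and 17 between shNT libraries. Of 9 colorectal epithelium markers, CDX1, KRT20 and LGALS4 had no count in any RKO library, and the summed level of the 9 was 167 to 176 FPKM in RKO CYP1B1 cells, 154 to 159 in RKO controls, 3080 to 3116 in shCYP1B1 cells and 2691 to 2784 in shNT cells. KRT8 and KRT18, epithelial keratins, make up most of that sum and rose in shCYP1B1 cells (log2 0.26 and 0.27), whereas EPCAM fell to 14.3 ± 0.34 FPKM in shCYP1B1 cells, against 84.3 ± 0.51 in shNT cells (SD, n = 2). VIL1 averaged 0.19 FPKM in shCYP1B1 cells and 1.76 in shNT cells, and CDX2 9.57 and 17.9, so that 2 of the 6 tested epithelial markers rose and 3 fell there. Their part in the SW480 results was not tested. The 10 markers of immune, endothelial and stromal cells summed to 4.13 to 5.52, 3.90 to 5.62, 17.3 to 17.8 and 12.2 to 13.4 FPKM in the same 4 groups. In bulk RNA, fewer cells of a kind and less RNA per cell cannot be told apart.

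The 7 genes lie on 6 chromosomes, and PMS2 and PMS1 begin close to another gene on the opposite strand. On GRCh38 (GENCODE release 29, principal transcripts), MSH6 runs over 10 exons at chr2:47783082-47810101 on the plus strand and MSH3 over 24 exons at chr5:80654648-80876460 on the plus strand. PMS2 has 15 exons at chr7:5973239-6009125 on the minus strand, PMS1 13 exons at chr2:189784381-189877629 on the plus strand, and MLH3 13 exons at chr14:75013764-75051532 on the minus strand. EXO1 has 16 exons at chr1:241848180-241889939 and MGMT 5 exons at chr10:129467184-129768007, both on the plus strand.

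The 250 bases before each start were read from the RefSeq promoter table (GRCh38.p14), in which all 7 genes were found. Exact matches on either strand were counted for 4 motifs: E2F words (TTTCCCGC, TTTCGCGC, TTTGCCGC or TTTGGCGC), the GC box with the letters GGGCGG, the CCAAT box, and the core that the aryl hydrocarbon receptor, which switches on CYP1B1, recognises in DNA, GCGTG. These words can overlap. Of all 35116 promoters in the table, 2.79% held an E2F word, 42.6% a GC box, 32.0% CCAAT and 32.2% GCGTG. An E2F word was found before MSH3 (2 matches) and PMS2 (1 match) and in none of the other 5 windows. GC boxes numbered 8 before MGMT, 5 before MSH6, 4 before MSH3, 2 before PMS2, 1 before PMS1, 1 before EXO1 and 0 before MLH3. GCGTG had 2 matches before MSH3 and 2 before MSH6, 1 each before PMS1, PMS2 and MGMT, and 0 before EXO1. CCAAT had 2 matches before PMS1, 2 before PMS2, 1 before MSH6 and 0 before MSH3, EXO1 and MGMT. MLH3 held none of the 4 motifs and had 13 CpG dinucleotides, against 22 to 36 in the other 6 windows and a median of 11 over all promoters. A match is a description of letters, not of binding.

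The stretches free of annotated exons are shown for the 4 genes on whose levels the results below turn and whose windows have such a stretch, with capitals marking motif matches on either strand. They are MSH6 (chr2:47782895-47783081, plus strand), PMS2 (chr7:6009126-6009244, minus strand, the whole gap to its neighbour AIMP2), MLH3 (chr14:75051533-75051717, minus strand) and MGMT (chr10:129466991-129467183, plus strand).
MSH6: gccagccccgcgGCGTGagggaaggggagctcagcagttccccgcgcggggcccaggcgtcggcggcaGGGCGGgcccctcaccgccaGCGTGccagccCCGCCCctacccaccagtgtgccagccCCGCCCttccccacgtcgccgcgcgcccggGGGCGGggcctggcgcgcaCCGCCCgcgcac
PMS2: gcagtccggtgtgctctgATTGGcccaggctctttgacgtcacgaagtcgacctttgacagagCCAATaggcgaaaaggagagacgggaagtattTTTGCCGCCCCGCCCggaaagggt
MLH3: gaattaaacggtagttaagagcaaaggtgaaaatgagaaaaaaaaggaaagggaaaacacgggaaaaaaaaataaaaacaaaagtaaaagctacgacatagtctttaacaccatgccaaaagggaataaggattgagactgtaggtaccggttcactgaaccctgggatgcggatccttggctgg
MGMT: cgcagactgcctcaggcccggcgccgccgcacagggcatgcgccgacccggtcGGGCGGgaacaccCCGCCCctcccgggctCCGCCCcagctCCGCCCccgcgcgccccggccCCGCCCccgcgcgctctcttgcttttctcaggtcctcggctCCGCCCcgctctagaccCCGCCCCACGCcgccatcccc
The contrast is between the GC-rich MSH6 and MGMT stretches and the A-rich MLH3 stretch without a marked motif.

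Among the 7 genes, the order of levels per gene length differed between the lines. In FPKM, EXO1 averaged 21.8 ± 2.25 and MSH6 21.7 ± 1.90 in RKO CYP1B1 cells (SD, n = 2), with overlapping libraries, followed by PMS1 at 6.27 ± 0.74, MGMT at 5.51 ± 1.18, PMS2 at 4.84 ± 1.16, MLH3 at 2.77 ± 0.28 and MSH3 at 0.55 ± 0.02. PMS1 and MGMT, and MGMT and PMS2, were not separated there. RKO control cells had EXO1 at 22.6 ± 0.80 and MSH6 at 16.01 ± 0.76, then PMS2 at 7.75 ± 0.66, PMS1 at 7.12 ± 0.14, MGMT at 4.85 ± 0.21, MLH3 at 4.24 ± 0.05 and MSH3 at 0.70 ± 0.004 FPKM, each gene above the next in both libraries. MSH3 was thus the lowest of the 7 genes in both RKO groups.

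SW480 cells put MSH6 first by a wide margin and MGMT last. In shCYP1B1 cells MSH6 averaged 41.0 ± 0.17 FPKM, followed by PMS2 at 8.40 ± 0.06, EXO1 at 8.23 ± 0.10, PMS1 at 7.90 ± 0.92, MSH3 at 2.99 ± 0.16, MLH3 at 2.48 ± 0.19 and MGMT at 0.84 ± 0.08 (SD, n = 2), with EXO1 and PMS1 not separated. In shNT cells MSH6 averaged 40.04 ± 0.25, EXO1 9.67 ± 0.19, PMS2 6.43 ± 0.04, PMS1 5.16 ± 0.08, MSH3 4.87 ± 0.29, MLH3 2.84 ± 0.23 and MGMT 0.84 ± 0.002 FPKM, each above the next in both libraries. The summed level of the 7 genes was 63.4 ± 0.80 FPKM in RKO CYP1B1 cells and 63.3 ± 1.94 in RKO controls, and 71.8 ± 1.23 in shCYP1B1 cells and 69.9 ± 0.50 in shNT cells. These levels rest on the gene lengths implied by the deposited FPKM, which run from 3836 bp for EXO1 to 7833 bp for MLH3. For MGMT the implied length was 4896 bp, against 1759 bp for the principal transcript. It was 5331 against 2855 bp for PMS2, 5062 against 3225 bp for PMS1 and 4677 against 7476 bp for MSH6. EXO1, MLH3 and MSH3 were closer to their principal transcripts. The order of genes within a group, and the ratio and shares given below, depend on these lengths.

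**Figure D1:**
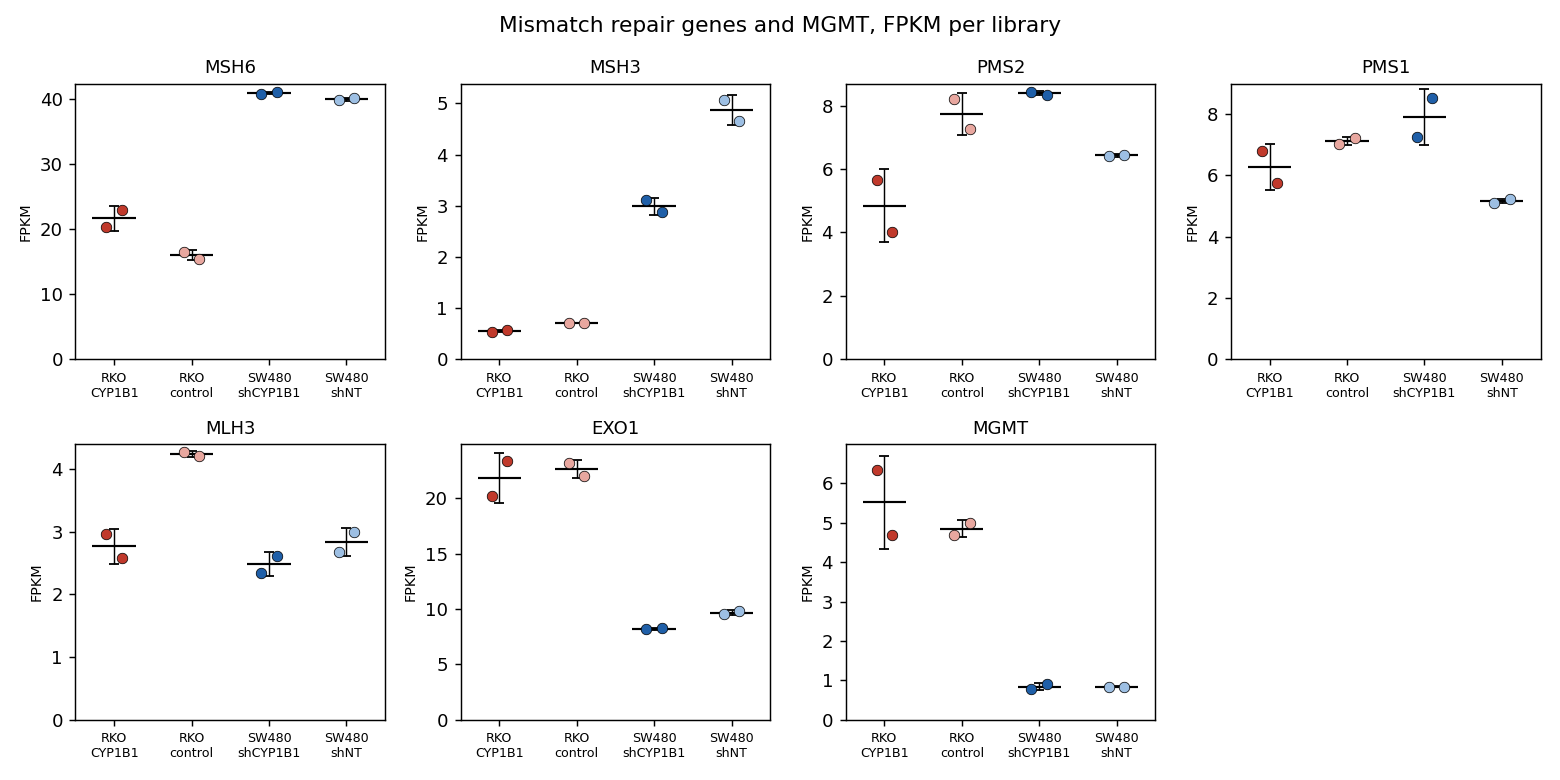
FPKM of each gene in the 8 libraries (points), with the mean (bar) and SD (whiskers) of the 2 libraries of RKO CYP1B1, RKO control, SW480 shCYP1B1 and SW480 shNT cells; each panel has its own axis from 0. MSH3 stays below 0.8 FPKM in all 4 RKO libraries and MGMT below 1 FPKM in all 4 SW480 libraries.

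CYP1B1 overexpression in RKO cells went with higher MSH6 and lower MLH3 and PMS2. These 3 of the 7 genes passed an adjusted p of 0.05 (edgeR quasi-likelihood test, Benjamini-Hochberg over 14157 genes), while 27.6% of all genes did so, 13.8% higher and 13.8% lower. The median log2 difference was -0.17 over the 7 genes and 0 over all genes. The number of genes called over the whole table, 3907, was 2254 without RKO control replicate 1 and 1784 without replicate 2.

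MSH6, the mismatch-binding subunit, was at 93.8 and 106 CPM (the count relative to the library total, after TMM scaling between libraries) in RKO CYP1B1 cells, against 76.1 and 69.9 CPM in RKO control cells. Both overexpression libraries lay above both controls. The log2 difference was 0.45 ± 0.08 (SE, adjusted p = 0.00178), a 1.37-fold higher level. MSH6 passed in all 18 alternative analyses of this comparison, with log2 differences between 0.36 and 0.54.

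MSH3, which serves the larger loops, was at 2.35 and 2.45 CPM in RKO CYP1B1 cells, from 82 counts in each library, and at 3.08 and 3.01 CPM in RKO control cells, from 99 and 103 counts. The groups did not overlap, but the log2 difference of -0.34 did not pass (SE 0.18, 95% interval -0.75 to 0.06, adjusted p = 0.197).

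PMS2, the nicking subunit of the main MutL complex, was at 29.7 and 21.2 CPM in RKO CYP1B1 cells, against 43.1 and 37.5 CPM in RKO control cells. Both overexpression libraries lay below both controls, and they also differed from each other more than the controls did. The log2 difference was -0.66 ± 0.14 (adjusted p = 0.00535), 1.58-fold lower. Without RKO control replicate 1 it was -0.56 and missed the threshold (adjusted p = 0.0616). The size depended on the overexpression library: it was -0.92 without RKO CYP1B1 replicate 1 and -0.44 without RKO CYP1B1 replicate 2, both past the threshold. PMS2 counts carry a further limit, because 34.1% of the 2806 stretches of 50 bases in its transcript also occur in other annotated genes, 809 of them in the copy PMS2CL, and the counting could divide or drop such reads.

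MLH3, the meiotic-type endonuclease subunit, was at 22.9 and 19.9 CPM in RKO CYP1B1 cells and 32.9 and 31.8 CPM in RKO control cells. No overexpression library reached the lower control. The log2 difference was -0.60 ± 0.12 (adjusted p = 0.00407), 1.51-fold lower, and it passed in all 18 alternatives, between -0.70 and -0.48.

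PMS1 was at 33.9 and 28.7 CPM in RKO CYP1B1 cells and 35.0 and 35.3 CPM in RKO controls, a log2 difference of -0.17 that did not pass (95% interval -0.42 to 0.09, adjusted p = 0.323). EXO1 was at 76.4 and 88.6 CPM in RKO CYP1B1 cells and 87.4 and 81.7 CPM in RKO controls, with the control values inside the range of the overexpression pair (-0.03, interval -0.23 to 0.16, adjusted p = 0.824). MGMT was at 30.6 and 22.6 CPM in RKO CYP1B1 cells and 22.6 and 23.6 CPM in RKO controls. Its 0.20 (interval -0.14 to 0.55, adjusted p = 0.382) rested on 1 high library, and without RKO CYP1B1 replicate 1 it was -0.03. The MGMT interval includes the 0.45 seen for MSH6.

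In SW480 cells the hairpin against CYP1B1 went with higher PMS1 and PMS2 and lower MSH3. Again 3 of the 7 genes passed, while 50.6% of all genes did so, 25.3% higher and 25.3% lower, so that the share among the 7 was no higher than over the table. The median log2 difference was 0.04 over the 7 genes and -0.004 over all genes.

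MSH3 was at 14.3 and 13.2 CPM in shCYP1B1 cells, from 467 and 440 counts, against 22.7 and 20.8 CPM in shNT cells, from 787 and 717 counts. Both knockdown libraries lay well below both shNT libraries. The log2 difference was -0.66 ± 0.15 (adjusted p = 0.00324), 1.58-fold lower, and it passed in all 18 alternatives, between -0.72 and -0.56.

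PMS1 was at 37.98 and 44.8 CPM in shCYP1B1 cells, against 26.1 and 26.5 CPM in shNT cells. The groups were far apart compared with the shNT pair, although the knockdown libraries differed from each other. The log2 difference was 0.66 ± 0.12 (adjusted p = 6.56e-04), a 1.58-fold higher level that passed in all 18 alternatives, between 0.53 and 0.78.

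PMS2 was at 46.6 and 46.2 CPM in shCYP1B1 cells and 34.4 and 34.5 CPM in shNT cells. The libraries of each group were almost equal and the groups did not overlap, and the log2 difference was 0.43 ± 0.14 (adjusted p = 0.0230), 1.35-fold higher. This call was the least firm of the 3: it was lost without any single SW480 library, shNT replicate 1 or 2 or shCYP1B1 replicate 1 or 2 (adjusted p 0.0727 to 0.089), and on log2 FPKM with limma (adjusted p 0.0507 to 0.0997). Reads shared with its copies limit it here as well.

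The other 4 genes did not pass in SW480 cells. MSH6 was at 198 and 199 CPM in shCYP1B1 cells and 188 and 189 CPM in shNT cells, a log2 difference of 0.08 with an interval of -0.09 to 0.25 (adjusted p = 0.434). MLH3 was at 19.0 and 21.3 CPM in shCYP1B1 cells and 21.1 and 23.5 CPM in shNT cells, overlapping, at -0.15 (interval -0.42 to 0.12, adjusted p = 0.332).
EXO1 was at 32.4 and 33.0 CPM in shCYP1B1 cells and 36.9 and 37.7 CPM in shNT cells. The groups did not overlap, yet -0.19 (interval -0.39 to 0.01) missed the threshold at an adjusted p of 0.106. EXO1 passed with scaling by library size alone (-0.23, adjusted p = 0.0491). It also passed without RKO CYP1B1 replicate 1 or replicate 2 (-0.19 each). MGMT was at 3.97 and 4.57 CPM in shCYP1B1 cells and 4.15 and 4.14 CPM in shNT cells, on 130 to 152 counts, with 0.04 and an interval of -0.37 to 0.46 (adjusted p = 0.870).

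**Figure D2:**
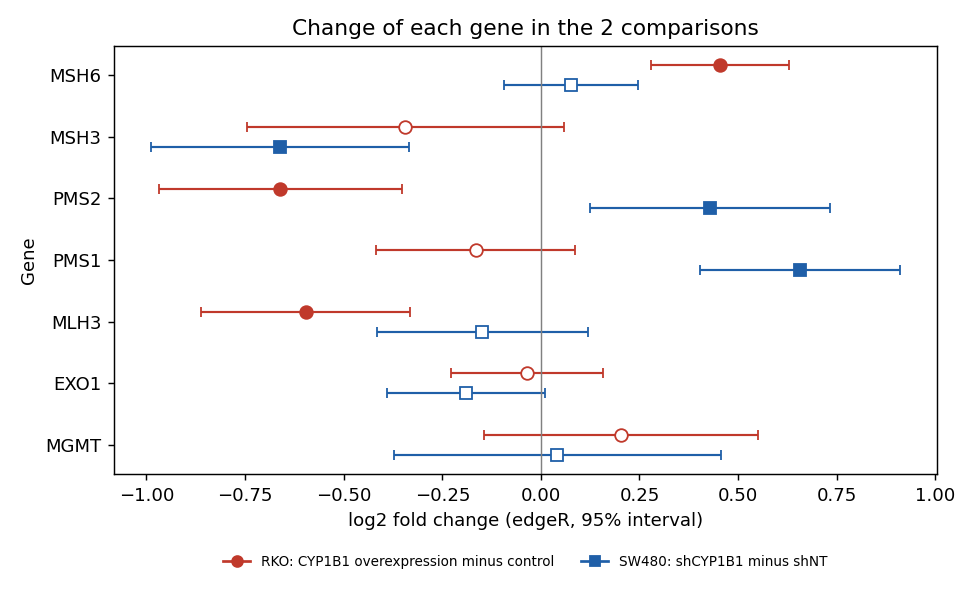
Log2 fold change of each gene with its 95% interval, for CYP1B1 overexpression minus control in RKO (red circles) and shCYP1B1 minus shNT in SW480 (blue squares); filled symbols passed an adjusted p of 0.05. PMS2 passed in both comparisons, at -0.66 in RKO and 0.43 in SW480.

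PMS2 was the single gene of the 7 to pass in both lines, lower with more CYP1B1 in RKO and higher with less CYP1B1 in SW480. Of all genes, 27.6% passed in RKO and 50.6% in SW480. The share passing in both was not counted, so the PMS2 overlap is not read as particular to these genes. Its SW480 call was lost in several alternatives, as given above. The effect of higher over lower CYP1B1 was compared as overexpression minus control in RKO, less shNT minus shCYP1B1 in SW480. CYP1B1 averaged 92.8 against 0.14 FPKM in RKO, by a transgene, and 0.35 against 0.06 FPKM in SW480, by a hairpin. In this difference the line, the kind of manipulation and the size of the CYP1B1 change cannot be told apart. The difference passed for 4 of the 7 genes, while 42.6% of all genes passed. It was -0.74 ± 0.17 for MLH3 (adjusted p = 0.00472), -1.004 ± 0.236 for MSH3 (adjusted p = 0.00533), 0.53 ± 0.11 for MSH6 (adjusted p = 0.00263) and 0.49 ± 0.16 for PMS1 (adjusted p = 0.0299). MSH3 went down with less CYP1B1 in SW480 and had a lower value that did not pass with more CYP1B1 in RKO, which gives its difference the largest size of the 4.

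For PMS2 the effects of higher over lower CYP1B1 had the same sign, and the difference of -0.23 between the lines did not pass (interval -0.66 to 0.20, adjusted p = 0.381), except without RKO CYP1B1 replicate 1 (-0.50, adjusted p = 0.00493). EXO1 differed by -0.22 (interval -0.50 to 0.05, adjusted p = 0.181) and passed without RKO CYP1B1 replicate 2 (-0.34, adjusted p = 0.0154). MGMT differed by 0.25 (interval -0.30 to 0.79, adjusted p = 0.463). The PMS1 difference passed in 8 of 17 alternatives. It was lost with scaling by library size alone (0.43, adjusted p = 0.0541) and with limma on log2 FPKM (0.36 to 0.41, adjusted p 0.0604 to 0.0946). It was also lost without RKO control replicate 1 or 2, shNT replicate 1 or 2, or shCYP1B1 replicate 2 (0.39 to 0.52). The MLH3, MSH3 and MSH6 differences passed in all 17.

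The balance between the members of each family moved with the groups, and it is given as a description. MSH6 and MSH3 compete for 1 partner, and their FPKM ratio was 37.9 and 41.2 in RKO CYP1B1 cells, against 23.4 and 22.1 in RKO controls. It was 13.2 and 14.3 in shCYP1B1 cells, against 7.86 and 8.62 in shNT cells. The ratio was higher in RKO CYP1B1 cells, where MSH6 was the member that passed, and in shCYP1B1 cells, where MSH3 was.

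Of the summed FPKM of the 3 MutL genes, PMS2 took 34.6% ± 2.88 in RKO CYP1B1 cells and 40.5% ± 2.24 in RKO controls (SD, n = 2). PMS1 took 45.3% ± 1.75 and 37.3% ± 1.85, and MLH3 20.0% ± 1.14 and 22.2% ± 0.39, in the same 2 groups. In SW480, PMS2 took 44.8% ± 2.83 in shCYP1B1 cells and 44.6% ± 0.81 in shNT cells, PMS1 42.0% ± 2.53 and 35.8% ± 0.30, and MLH3 13.2% ± 0.29 and 19.6% ± 1.11. PMS1 had the larger share in RKO CYP1B1 cells and in shCYP1B1 cells, without overlap between libraries.

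**Figure D3:**
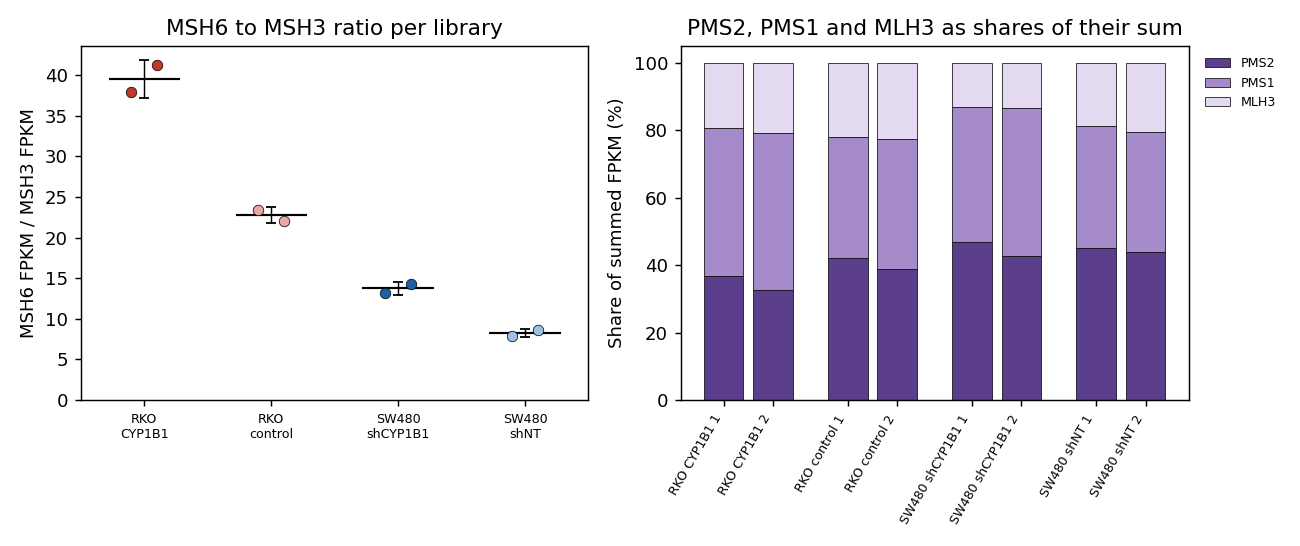
Left, the ratio of MSH6 to MSH3 FPKM in each library (points) with the mean and SD of 2 libraries per group; right, PMS2, PMS1 and MLH3 as percent of their summed FPKM in each library. The ratio reaches 41.2 in RKO CYP1B1 cells and is at most 8.62 in shNT cells.

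Between the 2 control groups, RKO control cells had far less MSH3 and MSH6 and more MGMT and EXO1 than SW480 shNT cells. Passing was common in this comparison, 76.8% of all genes (35.6% higher in RKO, 41.2% lower), and 6 of the 7 genes did so. It sets 1 line of each kind side by side, with different control constructs, so that microsatellite status and every other difference between the lines cannot be told apart.

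MSH3 was at 3.08 and 3.01 CPM in RKO control cells and 22.7 and 20.8 CPM in shNT cells, a log2 difference of -2.83 ± 0.17 (adjusted p = 2.10e-08), 7.13-fold lower in RKO. MSH6 was lower in RKO by 2.58-fold (-1.37 ± 0.08, adjusted p = 1.90e-08). MGMT was at 22.6 and 23.6 CPM in RKO control cells and 4.15 and 4.14 CPM in shNT cells, 5.57-fold higher in RKO (2.48 ± 0.18, adjusted p = 1.18e-07).
EXO1 was 2.27-fold higher in RKO (1.18 ± 0.09, adjusted p = 2.08e-07), MLH3 1.45-fold (0.54 ± 0.12, adjusted p = 0.00161) and PMS1 1.34-fold (0.42 ± 0.12, adjusted p = 0.00590). PMS2 was at 43.1 and 37.5 CPM in RKO control cells and 34.4 and 34.5 CPM in shNT cells and did not pass (0.22, interval -0.08 to 0.53, adjusted p = 0.159). It passed without RKO CYP1B1 replicate 1 (adjusted p = 0.0214) or replicate 2 (0.0195). The 6 genes that passed did so in all 17 alternatives.

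PMS2 and AIMP2, a scaffold gene of the tRNA synthetase complex, start on opposite strands with 119 bases between them. AIMP2 was at 27.4 and 21.5 FPKM in RKO CYP1B1 cells and 38.3 and 39.1 in RKO controls (log2 difference -0.65 ± 0.10, adjusted p = 9.59e-04), and PMS2 was lower there too. In SW480 the pair parted: AIMP2 was at 53.1 and 53.3 FPKM in shCYP1B1 cells and 71.4 and 66.2 in shNT cells (-0.33 ± 0.10, adjusted p = 0.0161), while PMS2 was higher.

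PMS1 and ORMDL1, a regulator of sphingolipid synthesis, start 286 bases apart and share 103 exonic bases. ORMDL1 was at 8.32 and 8.08 FPKM in RKO CYP1B1 cells and 8.72 and 9.76 in RKO controls (-0.15, adjusted p = 0.230). It was at 6.08 and 6.67 FPKM in shCYP1B1 cells and 8.24 and 8.39 in shNT cells (-0.34 ± 0.09, adjusted p = 0.00809), opposite in sign to PMS1.
MSH6 shares 1644 exonic bases at its far end with the ubiquitin ligase gene FBXO11 on the other strand. FBXO11 was lower by -0.44 ± 0.09 in RKO CYP1B1 cells (adjusted p = 0.00372), where MSH6 was higher, and higher by 0.29 ± 0.09 in shCYP1B1 cells (adjusted p = 0.0186). The use of strand in counting is not given, so reads from exons that overlap on opposite strands cannot be assigned to either gene. Of the 5 neighbouring genes described, none rose and 2 fell in RKO, where 27.6% of all genes passed, and 3 rose and 2 fell in SW480, where 50.6% did, the other 2 genes being EIF2B2 and ACYP1 beside MLH3. In place of the 5 calls in SW480 there was 1 without shNT replicate 1 or 2 or shCYP1B1 replicate 2, there were 2 without shCYP1B1 replicate 1, and 3 on log2 FPKM with limma.

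**Figure D4:**
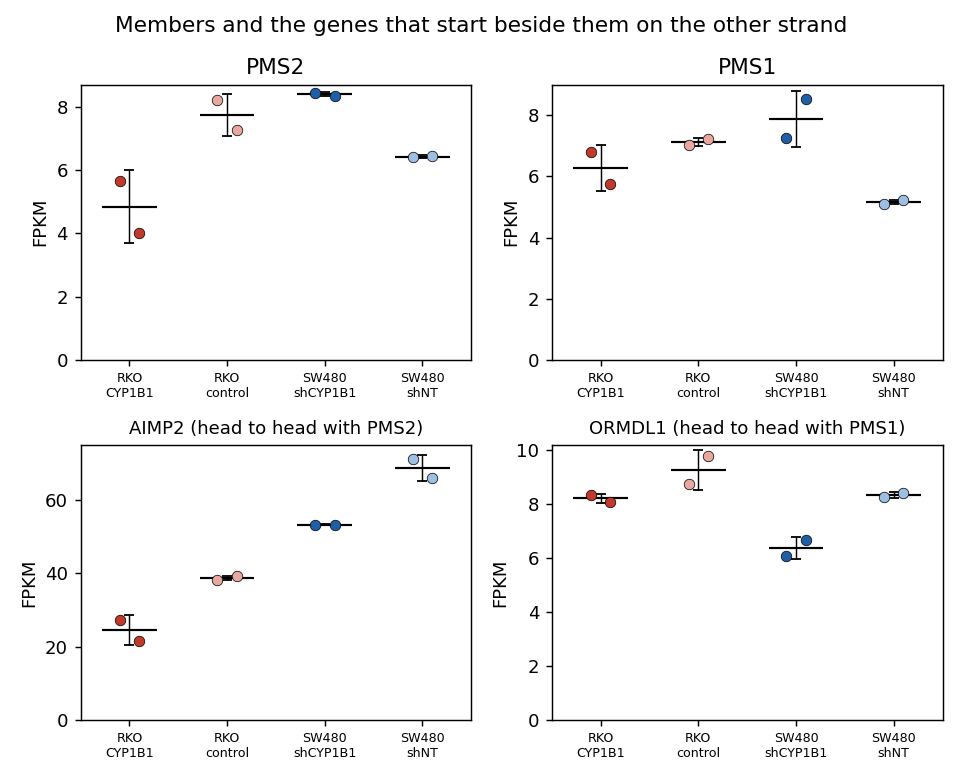
FPKM per library (points), with mean and SD of 2 libraries per group, of PMS2 and PMS1 (top) and of the genes that start beside them on the other strand, AIMP2 and ORMDL1 (bottom). In shCYP1B1 against shNT cells, AIMP2 and ORMDL1 are lower where PMS2 and PMS1 are higher.

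Downstream of recognition, the excision and resynthesis factors (the sliding clamp, clamp loader, polymerases, ligase and single-strand binding proteins, 21 genes, all tested) were mostly lower in SW480 shCYP1B1 cells: 15 fell and 2 rose, with a median log2 difference of -0.47, while 25.3% of all genes fell and 25.3% rose with a median of -0.004. PCNA, the sliding clamp, was at 96.1 and 87.8 FPKM in shCYP1B1 cells and 198 and 195 in shNT cells (-1.05 ± 0.08, adjusted p = 2.39e-06). FEN1, the flap nuclease (-1.01), LIG1, the replicative ligase (-0.85), and POLD2 of polymerase delta (-0.60) fell too. SSBP1, the mitochondrial single-strand binding protein counted in this list, was lower by -0.53. POLD4 rose by 0.46 and RFC1, the large clamp loader subunit, by 0.20. EXO1, which acts with these factors in repair, did not pass there. Most of the 21 genes also serve DNA replication, so the changes are not particular to repair, and repair activity was not tested.
In RKO CYP1B1 cells 7 of the 21 rose and 1 fell, with a median of 0.18, against 13.8% of all genes in each direction and a median of 0. POLD1, the catalytic subunit of polymerase delta, was at 28.9 and 36.0 FPKM in RKO CYP1B1 cells and 17.0 and 15.9 in RKO controls (1.00 ± 0.10, adjusted p = 1.11e-04). FEN1 (0.88), LIG1 (0.71), PCNA (0.66) and RPA1 (0.43) rose, and RFC1 fell by 0.28. Without RKO control replicate 1, 5 genes of the list passed in place of 8. Between the control groups 3 of the 21 were higher and 13 lower in RKO, median -0.57, where 35.6% of all genes were higher and 41.2% lower with a median of -0.08.

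Of 15 accessory and chromatin factors, 1 rose and 10 fell in SW480 shCYP1B1 cells, with a median of -0.64, against 25.3% of all genes in each direction. UHRF1, which reads newly replicated chromatin, was lower by -1.68 ± 0.16 (adjusted p = 8.02e-06), and SETD2, whose histone mark recruits MSH6 to chromatin, by -0.74 ± 0.11 (adjusted p = 1.68e-04). HELLS, MCM8 and SMARCAD1 also fell, and HDAC6, a deacetylase, rose by 0.82. In RKO CYP1B1 cells 2 rose (UHRF1 by 0.68 and RNASEH2C by 0.45) and 3 fell (SMARCAD1, RNASEH2B and BLM), with a median of -0.13. That is 33.3% of the list, near the 27.6% of all genes. Those 5 calls depended on single libraries: 2 genes passed without RKO control replicate 1, 1 without RKO control replicate 2, 10 without RKO CYP1B1 replicate 1, and 3 without shCYP1B1 replicate 1 or 2.

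**Figure D5:**
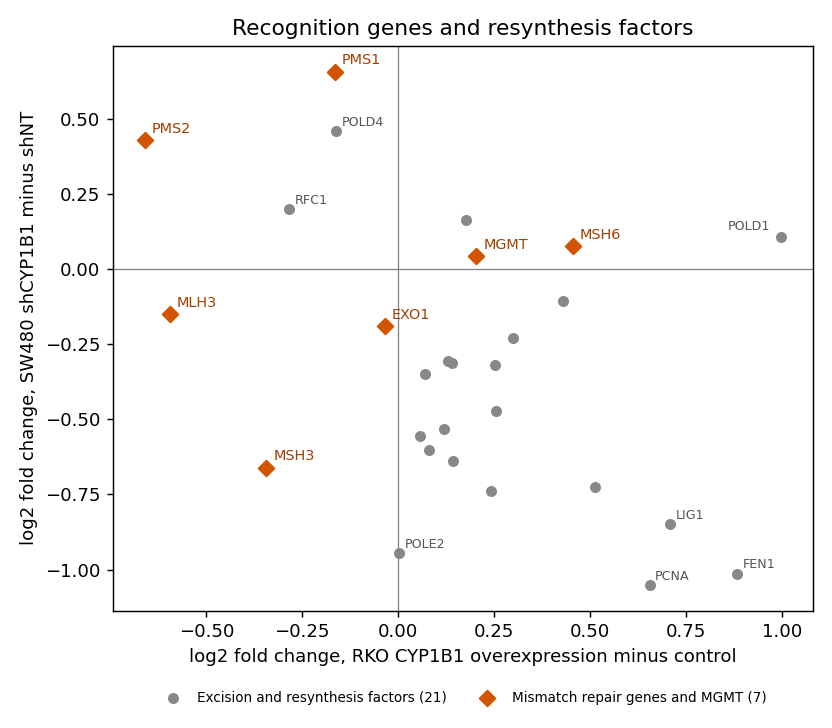
Log2 fold change in RKO (CYP1B1 overexpression minus control, horizontal) against that in SW480 (shCYP1B1 minus shNT, vertical) for the 21 excision and resynthesis factors (grey circles) and the 7 repair genes (orange diamonds). PCNA, FEN1 and LIG1 lie at the lower right, with values of 0.66, 0.88 and 0.71 in RKO and -1.05, -1.01 and -0.85 in SW480, and none of the 7 repair genes lies beside them.

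For the 5 members that passed in RKO or SW480, the tested genes of at least 10 CPM with the most similar pattern over the 8 libraries were found by Pearson's r of log2 CPM centred within each line. The points share library and line, so r is given as a description. The genes named are those with the highest r among 10090 compared over 8 libraries, so values this high can come from the selection alone. MLH3 was most like SYNJ1 (r = 0.994), ZNF585A (0.993) and SERPINB8 (0.988). MSH3 was most like SLC41A2 (0.995), TMEM185B (0.995) and the base excision gene MUTYH (0.992). MSH6 was most like PNP (0.997), TUBA4A (0.997) and TPRG1L (0.994), PMS1 like GNL2 (0.996), CRLS1 (0.988) and DCTN2 (0.987), and PMS2 like ZNF391 (0.995), PDCD10 (0.994) and TPD52L1 (0.994). Among all 7 members themselves, the lowest r was -0.94, between MLH3 and MSH6, and the highest 0.74, between MSH3 and EXO1. It was 0.71 between PMS1 and PMS2. Negative values of like size were -0.76 between PMS1 and EXO1, -0.73 between MSH3 and PMS1, and -0.71 between MSH6 and PMS2.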

How the data were processed

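The authors deposited raw read counts per gene and FPKM for the same 16829 genes in 8 libraries; the genome build, per the submitters' processing notes, was GRCh38.p13, with aligner, counter, annotation and strand setting unstated (not given in the sources used here). FPKM as deposited equal the count divided by a gene length and by the library total. Tests were run on the deposited counts in edgeR 4.0.16 (R 4.3.3): filterByExpr (minimum count 10, minimum total 15), TMM scaling, and quasi-likelihood fits with 1 coefficient per group over all 8 libraries, with 14157 genes tested and Benjamini-Hochberg adjustment over them. SE is the log2 difference divided by the square root of F. No permutation test was run, since 2 libraries against 2 cannot go below p = 0.333.

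The 7 members, the gene lists and the alternatives were chosen with earlier results of these data known. All members are named in every comparison. From each list at most 6 genes with the smallest p are named, plus some against the main direction, not always all of them. The 3 genes most alike are named for each member that passed. Some items are not reported here. Group and replicate number came from the sample titles. Same-numbered libraries did not deviate together (correlations -0.03 in RKO and -0.02 in SW480), so no block was used. Tried in place of these steps were scaling by RLE or by library size alone, no filter or 1 CPM in 4 libraries, DESeq2 1.42.0, limma 3.58.1 on log2 FPKM plus 1 or 0.1 with and without a filter, single-line fits, the block, and each library left out, with a lone library taken to vary as the remaining groups do. The steps were tested on simulated counts. Positions came from GENCODE release 29 and promoters from RefSeq.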

Additional observations from a re-analysis of the deposited data

Results flagged for a closer look

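The difference between RKO and SW480 in the effect of higher over lower CYP1B1 passed the edgeR test for 4 of the 7 genes, where 42.6% of all genes passed. The line, the kind of manipulation and the size of the CYP1B1 change cannot be told apart in it. The log2 difference was -0.74 for MLH3, -1.004 for MSH3, 0.53 for MSH6 and 0.49 for PMS1. The PMS1 difference passed in only 8 of 17 alternatives, while those of MLH3, MSH3 and MSH6 passed in all 17. With 2 libraries in each group, no library was tested for standing apart from its group.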

How the results depend on the processing

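Of 490 recomputed differences for the 7 genes, 458 kept their direction and their side of the threshold, 17 no longer passed, 7 newly passed and 8 changed sign. The sign changes were all of differences that never passed: EXO1 in RKO, which ranged from -0.145 to 0.0695 with 1 library left out (0.0152 without RKO control replicate 1), MGMT in RKO, from -0.0305 to 0.405, and MGMT in SW480, from -0.0543 to 0.148 with 1 library left out, -0.00156 with library size only, -0.00159 with limma on FPKM plus 1 (with or without a filter) and -0.00447 with FPKM plus 0.1. The number of genes called in RKO, 3907, was 2294 when RKO libraries were fitted alone and 1784 to 5629 with 1 library left out. With the replicate number as a block, 3653 genes were called in RKO, 6891 in SW480, 10761 between controls and 5770 for the difference between the lines, with 3, 3, 6 and 4 of the 7 genes, and no count of the 7 changed. Scaling moved the median of all genes by less than 0.1 in each comparison. The lowest counts per library were those of MSH3 in RKO (82 to 103) and MGMT in SW480 (130 to 152), which limits the precision there.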

Other observations

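Of 20 listed genes with coding repeats that are often frameshifted in unstable tumours, 17 were tested. Between RKO control and SW480 shNT cells 4 were higher and 7 lower (edgeR, adjusted p below 0.05), which is 64.7% of the list against 76.8% of all genes. RNF43, a ubiquitin ligase of the Wnt pathway, was at 0.43 and 0.28 FPKM in RKO control cells and 27.5 and 28.3 FPKM in shNT cells, and TGFBR2, a receptor for TGF-beta, at 1.70 and 1.75 FPKM in RKO control cells against 5.35 and 5.46 FPKM in shNT cells. RAD50, of the break-sensing complex, was higher in RKO by 0.83 on the log2 scale and BAX, an apoptosis gene, by 0.57. In RKO CYP1B1 cells 1 of the 17 rose, BAX by 0.50, and 7 fell, among them RAD50 (-0.57) and SEC31A (-0.53), where 13.8% of all genes rose and 13.8% fell. Without RKO control replicate 2, 5 genes of the list passed in place of 8. In SW480 shCYP1B1 cells 3 rose, among them TGFBR2 (0.65), and 5 fell, among them TFAM (-1.11), 47.1% of the list against 50.6% of all genes.

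Of 21 genes of alkylation and base excision repair other than MGMT, 3 rose and 3 fell in RKO CYP1B1 cells, with a median log2 difference of -0.01, which is 28.6% of the list against 27.6% of all genes. The uracil glycosylase UNG rose by 0.67 and ASCC1 was lower by -0.62, and 3 genes of the list passed without RKO control replicate 2. In SW480 shCYP1B1 cells 5 rose and 9 fell, with a median of -0.22, 66.7% of the list against 50.6% of all genes. The thymine glycosylase TDG was at 2.05 and 1.71 FPKM in shCYP1B1 cells and 6.07 and 5.61 FPKM in shNT cells (-1.59 ± 0.15, adjusted p = 7.02e-06), while the methyl-CpG glycosylase MBD4 rose by 0.63. Of the meiotic MutS genes, MSH5 was lower in RKO CYP1B1 cells by -0.53 (edgeR adjusted p = 0.0425). That call was lost without RKO CYP1B1 replicate 2 and without either RKO control or any SW480 library. It was also lost with limma on log2 FPKM plus 1 or 0.1 without a filter, and when RKO libraries were fitted alone. MSH5 was higher in RKO controls than in shNT cells by 1.33, and MSH4 had 47 and 45 counts in RKO controls and 0 and 8 in shNT cells.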
